A study of Mus musculus with 9 samples.

Results

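The genes described here are 10 transcripts of the cytotoxic granule and its inhibitors, taken as a list of symbols and matched to Ensembl identifiers: the granzymes Gzma, Gzmb and Gzmm, the pore former Prf1, the death ligand Fasl, the granule components Nkg7, Ctsw and Srgn, and the serpins Serpinb9 and Serpinb6b. All 10 were present among the 14004 genes of the table. They were measured by bulk RNA-seq in iNKT1 cells, the T-bet-dependent subset of invariant natural killer T cells, from thymus, liver and spleen, with 3 libraries per tissue. All libraries came from untreated C57BL/6 mice of genotype Tbx21CreTg;Rosa26-LSL-YFP+/+, in which a Cre transgene under the control of Tbx21 switches on a YFP reporter. The reporter therefore marks cells in which the Cre was active at any time, so a cell can carry it without expressing Tbx21 at the time of isolation. The design calls the 3 libraries of a tissue independent replicates, and the labels give neither age nor sex, nor whether a library came from 1 animal or a pool. P-values therefore measure the spread between these libraries.

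Cytotoxic lymphocytes kill by releasing granules onto a target cell. Perforin opens the target membrane, and granzymes, which are serine proteases stored on the proteoglycan serglycin, enter and cleave proteins that trigger cell death. Fas ligand kills by a separate route, through the Fas receptor, and the cell protects itself from its own granzyme B with an intracellular serpin.

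Sequence upstream of the start site is shown for both granzymes whose values differed most between tissues. RefSeq (GRCm38.p6) gave the 250 bases before the start for 9 of the 10 genes. Both lines run 5′ to 3′ on the gene's own strand, the minus strand, for Gzmb at chr14:56262335-56262584 and for Gzma at chr13:113100982-113101231. Capitals mark letters that match a RUNX motif (TGTGGTT or, on the opposite strand, AACCACA) or an AP-1 motif (TGANTCA).
Gzmb: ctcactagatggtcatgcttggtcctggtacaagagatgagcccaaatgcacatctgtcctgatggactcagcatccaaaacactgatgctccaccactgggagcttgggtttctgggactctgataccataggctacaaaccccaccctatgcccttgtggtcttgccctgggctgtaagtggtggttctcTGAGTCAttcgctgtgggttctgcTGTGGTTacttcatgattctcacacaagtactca
Gzma: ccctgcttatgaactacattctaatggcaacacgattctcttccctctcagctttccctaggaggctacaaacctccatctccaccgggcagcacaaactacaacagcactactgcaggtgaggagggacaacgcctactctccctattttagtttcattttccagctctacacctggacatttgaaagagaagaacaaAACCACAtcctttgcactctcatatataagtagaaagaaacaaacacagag
In Gzmb the AP-1 match lay 52 to 58 bases and the RUNX match 28 to 34 bases before the start, and in Gzma the RUNX match lay 45 to 51 bases before it. The GENCODE start of Gzmb lies 74 bases downstream of the RefSeq start. Both strands were searched, and the AP-1 and RUNX letters did not overlap in Gzmb. The RUNX letters occurred in 4.4% of 32851 windows of this length and also in the Srgn window, and the AP-1 letters in 6.75%. Of the other motifs searched, the T-box letters AGGTGTGA (1.12% of windows) occurred in Nkg7 and the STAT letters TTCNNNGAA (7.02%) in Gzmm and Nkg7. The CRE letters TGACGTCA (1.55%) occurred in none of the 9. A match is a description of the letters and does not show that a factor binds.

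Values are normalised read counts as deposited, with column totals of 22363922 to 32037024. A log2 fold change is a difference of means of log2(value + 1), which understates the change of low genes, and a fold given "by the means" is the ratio of the tissue means of the values. Reads recovered from the values numbered between 3878120 (liver replicate 3) and 39568081 (spleen replicate 3). The libraries numbered 2 had high Xist and at most 21 Y-linked reads, whereas the other 6 had at least 1458. Thymus replicate 3 held both Xist and Y-linked reads. Mitochondrial genes took 26.1% to 37.4% of the recovered reads. The 8 iNKT1 markers summed to between 93824 and 122586 in thymus, 131252 and 148646 in liver, and 88366 and 104551 in spleen. All liver sums therefore lay above those of the other tissues. Il2rb and Cd3e made up most of each sum, and the markers did not all go the same way. Liver means were above thymus means for Cd3e, Cd247, Il2rb and Cxcr3. They were below them for Cd3g, Zbtb16, Tbx21 and Klrb1c, and Klrb1c was lower in every liver library than in every thymus library. Cd3e was between 25652 and 46800, and its liver values all lay above its spleen values. In bulk libraries, fewer cells of a type and less RNA per cell cannot be told apart.

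The genes lie on 6 chromosomes (GRCm38, GENCODE vM21). Gzmb is at chr14:56258838-56262260 and Gzma at chr13:113093825-113100981, both on the minus strand. Serpinb6b (chr13:32965209-32979067) and Serpinb9 (chr13:33003250-33017957) both lie on the plus strand of chromosome 13. Prf1 (chr10:61297833-61304680) and Srgn (chr10:62493833-62527451) lie on chromosome 10 with Gzmm (chr10:79689020-79695261), and Fasl is at chr1:161780689-161788495. Nkg7 is at chr7:43437073-43438249 and Ctsw at chr19:5465043-5468507. Per exonic kilobase, Nkg7 had the highest mean level of the 10 in every tissue: thymus 20666, liver 25034, spleen 11402. Gzmb came next in thymus (10857) and liver (5604) and stood at 548 in spleen, where all the others except Gzma, Gzmm and Prf1 were higher, among them Srgn (4133), Ctsw (2386) and Fasl (2008). Prf1 was lower, at 454, 205 and 345. Among the genes tested, Gzmb ranked at the 99.7th percentile per length in thymus and Prf1 at the 82.2nd.

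Gzmb, which encodes granzyme B, the granule protease that activates caspases in the target, formed a gradient from thymus to liver to spleen. Its values were 15046, 17618 and 14109 in thymus, 7927, 5937 and 10279 in liver, and 477, 487 and 1395 in spleen. No spleen library reached the lowest liver library, and no liver library reached the lowest thymus library. The means were 15591 ± 1817, 8048 ± 2173 and 786 ± 527 (SD, n = 3 each). Gzmb fell 19.8-fold by the means from thymus to spleen (log2 fold change -4.50, SE 0.40, limma-trend adjusted p = 6.5e-05). It was 10.2-fold higher by the means in liver than in spleen (log2 fold change 3.51, SE 0.40, limma-trend adjusted p = 0.00297). The lower level in liver than in thymus, 1.94-fold by the means, did not pass (log2 fold change -0.98, 95% interval -1.84 to -0.13, limma-trend adjusted p = 0.361). The thymus libraries serve in both comparisons with thymus. The liver to spleen call was lost without liver replicate 1 (limma-trend adjusted p = 0.0645), without liver replicate 3 (0.0507), and without liver replicate 1 and spleen replicate 1 together (0.386), whereas the thymus to spleen call held in 23 of 23 alternatives.

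Gzma encodes granzyme A, a tryptase that kills by a route independent of caspases. Its values were 4179, 7043 and 3087 in thymus, 3351, 323 and 631 in liver, and 681, 204 and 166 in spleen. Thymus and spleen did not overlap, and liver replicate 1 lay inside the thymus range while its other two libraries lay near those of spleen. Means were 4770 ± 2043, 1435 ± 1667 and 350 ± 287 (SD, n = 3). The thymus to spleen difference, 13.6-fold by the means, passed (log2 fold change -3.98, SE 0.79, limma-trend adjusted p = 0.0412). This call did not hold in 10 of 23 alternatives. Among them were 7 of the 9 that omitted a single library, namely any thymus or spleen library or liver replicate 3, and the limma-trend adjusted p was highest, at 0.193, without spleen replicate 3. The liver to thymus difference did not pass (-2.35, limma-trend adjusted p = 0.27), nor did liver to spleen (1.63, 95% interval -0.06 to 3.31).

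Gzmm, a granzyme that cleaves after methionine and leucine, was at or near no read in every library. It had at most 2 reads in 8 libraries and 7 in spleen replicate 3, so no fold is given. Per exonic kilobase Gzmb exceeded Gzma in mean level in each tissue, at 10857 against 4741 in thymus, 5604 against 1426 in liver and 548 against 348 in spleen. Within libraries the ratio of Gzmb to Gzma per length was 2.52, 1.75 and 3.20 in thymus, 1.66, 12.9 and 11.4 in liver, and 0.491, 1.67 and 5.89 in spleen. The order of the granzymes was therefore not the same in all spleen libraries.

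**Figure D1:**
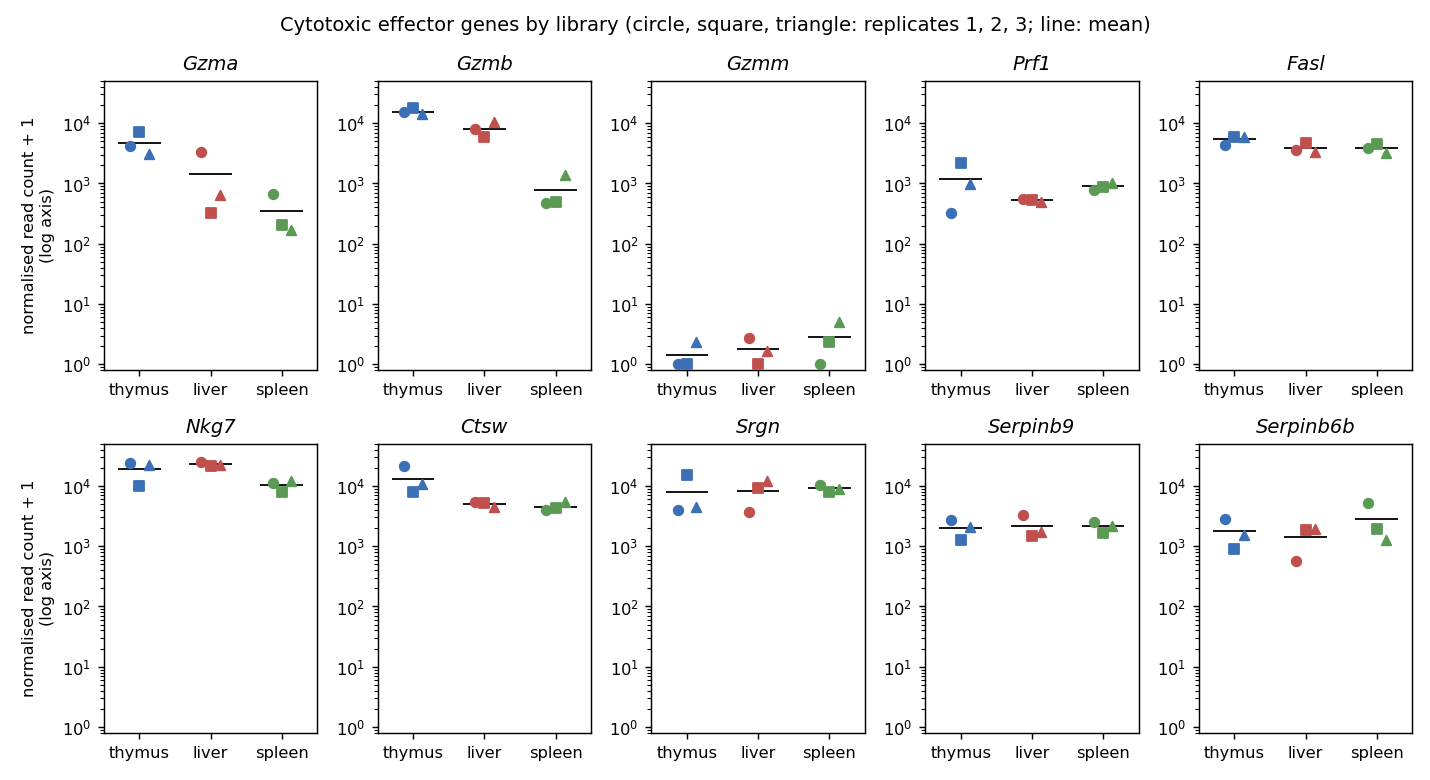
Normalised read count plus 1 (log axis) of the 10 genes in each of the 9 libraries. Points are libraries, with circle, square and triangle for replicates 1, 2 and 3, and the line is the mean of a tissue. Gzmb lies between 14109 and 17618 in thymus and between 477 and 1395 in spleen, whereas the Serpinb9 values of the 3 tissues overlap.

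Perforin (Prf1), the pore former, did not share this gradient. Prf1 values were 323, 2220 and 974 in thymus, 560, 535 and 497 in liver, and 775, 867 and 1032 in spleen. The thymus libraries spanned the values of both other tissues, and the liver libraries all lay below the spleen libraries. Prf1 means were 1172 ± 964, 531 ± 31.8 and 891 ± 130 (SD, n = 3), and no comparison passed. Between spleen and thymus the log2 fold change was -0.00, with a 95% interval of -1.46 to 1.45.

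Fas ligand (Fasl) values overlapped between all tissues. They were 4270, 5985 and 5931 in thymus, 3635, 4743 and 3326 in liver, and 3890, 4526 and 3249 in spleen. The liver and spleen ranges coincided almost completely, and their interval of difference was -0.65 to 0.66 on the log2 scale. Fasl was -0.47 relative to thymus in both liver and spleen, and neither comparison passed.

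Nkg7, a granule membrane protein needed for exocytosis, and Ctsw, a cysteine protease of lymphocytes, showed different patterns. Nkg7 values were 24284, 10067 and 22316 in thymus, 25136, 21154 and 22354 in liver, and 11002, 8003 and 12260 in spleen. All liver libraries lay above all spleen libraries, and thymus replicate 2 lay among the spleen values. The liver to spleen difference was 2.2-fold by the means (log2 fold change 1.15, SE 0.29, unadjusted p = 0.0013, limma-trend adjusted p = 0.9999) and did not pass across all genes. It passed with array weights (limma-trend adjusted p = 0.0119), where 18 of all genes were called against 2 without weights. The spleen to thymus difference (-0.78, limma-trend adjusted p = 0.315) passed without thymus replicate 2 (-1.18, limma-trend adjusted p = 0.0345).

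Ctsw values were 21070, 7885 and 10611 in thymus, 5351, 5216 and 4495 in liver, and 3954, 4248 and 5308 in spleen. Every thymus library lay above every liver and spleen library, while liver and spleen overlapped. Thymus was 2.63-fold above liver by the means (log2 fold change of liver versus thymus -1.27, SE 0.33, limma-trend adjusted p = 0.165) and 2.93-fold above spleen by the means (log2 fold change -1.43, SE 0.33, limma-trend adjusted p = 0.0858), and neither passed. The spleen comparison passed with TMM scaling (limma-trend adjusted p = 0.0327), by DESeq2 (adjusted p = 0.00322) and without thymus replicate 2 (limma-trend adjusted p = 0.0295), and the liver comparison by DESeq2 (adjusted p = 0.0137). Ctsw overlaps the end of Fibp on the opposite strand, so without strand information reads from that overlap cannot be assigned to either gene.

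Srgn encodes the granule proteoglycan serglycin. Its values were 3957, 15003 and 4484 in thymus, 3743, 9108 and 12076 in liver, and 10331, 7891 and 9005 in spleen. The highest value was in thymus replicate 2 and the lowest in liver replicate 1, and all tissues overlapped. The 3 comparisons gave log2 fold changes of 0.21, 0.49 and -0.28, none of which passed.

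Of the inhibitors, Serpinb9 encodes the serpin that blocks granzyme B inside the cell. Serpinb9 values were 2756, 1279 and 2044 in thymus, 3233, 1448 and 1733 in liver, and 2535, 1672 and 2196 in spleen. The 3 tissues overlapped fully, and means were 2026 ± 738, 2138 ± 959 and 2134 ± 434 (SD, n = 3). The 95% interval of the log2 difference was -0.90 to 1.01 for liver to thymus and -0.83 to 1.08 for spleen to thymus, so a difference of about that size in either direction was within the error. Serpinb6b, a serpin of the same clade, was highest in spleen replicate 1 at 5131 and lowest in liver replicate 1 at 558. Its means were 1752 ± 957, 1436 ± 762 and 2775 ± 2064 (SD, n = 3), the 3 tissues overlapped, and no comparison passed.

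**Figure D2:**
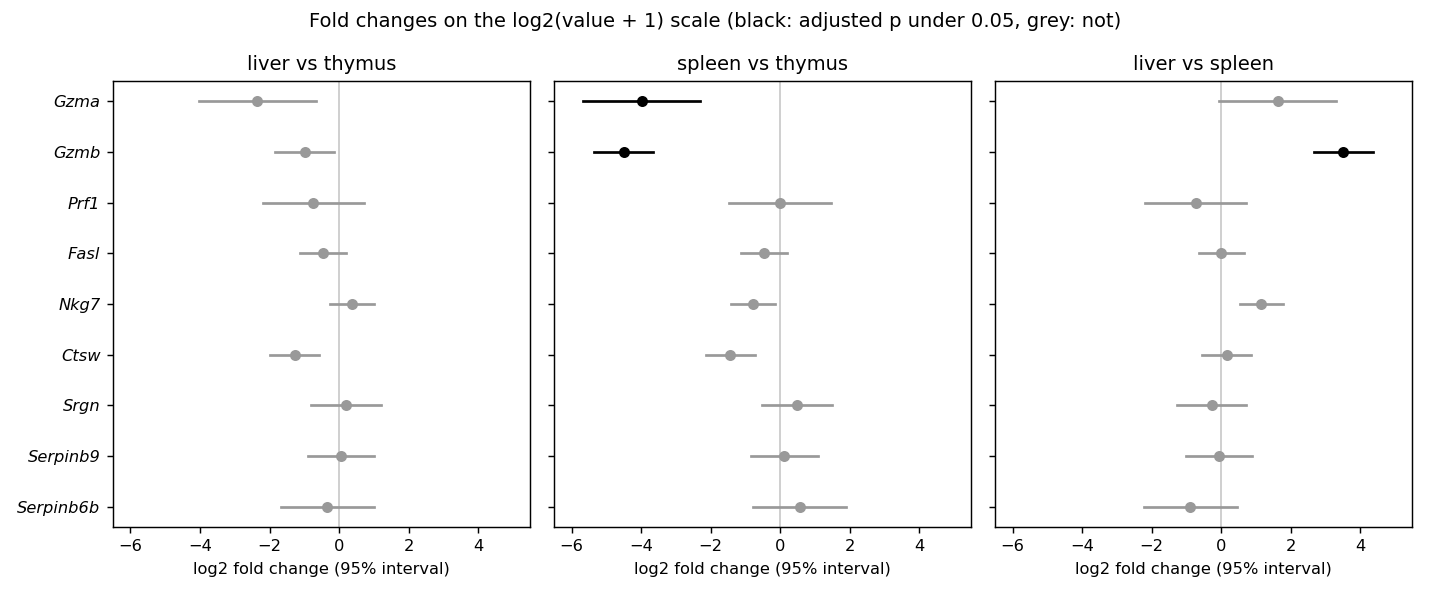
Log2 fold change with its 95% interval for 9 of the genes in the 3 comparisons. Black marks an adjusted p under 0.05. Gzmb is black in both comparisons with spleen and Gzma in spleen versus thymus.

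Counted over all 10 genes, the calls were few and fell on the granzymes. In liver versus thymus, 0 genes were called by limma-trend, where 0.323% of the 13309 genes tested were called (0.203% with the higher level in liver and 0.12% with the lower). Before adjustment, 3 of the 10 had p under 0.05, and these were lower in liver (Gzma, Gzmb and Ctsw), beside 3.92% of all genes lower and 7.72% higher. On recovered reads, DESeq2 called 1, Ctsw, beside 3.85% of the genes to which it gave an adjusted p, and edgeR called 0, beside 0.165% of all genes. In spleen versus thymus, 2 were called, both lower in spleen, beside 0.398% of all genes (0.21% lower and 0.188% higher). Before adjustment, 4 had p under 0.05 and were lower in spleen, the same 3 genes and Nkg7, beside 4.13% lower and 7.56% higher. DESeq2 called 3 (Gzma, Gzmb and Ctsw), beside 4.25% of genes, and edgeR called 1 (Gzmb), beside 0.278%. In liver versus spleen, 1 was called, higher in liver, beside 0.015% of all genes. Before adjustment, 2 had p under 0.05 and were higher in liver (Gzmb and Nkg7), beside 1.72% higher and 1.31% lower. DESeq2 and edgeR each called 1, Gzmb, beside 0.176% and 0.015% of genes.

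Values did not overlap for 2 genes in liver versus thymus, Gzmb and Ctsw, both lower in liver, beside 5.73% of all genes lower and 9.61% higher (15.3% together). In spleen versus thymus this held for Gzma, Gzmb and Ctsw, all lower in spleen, beside 6.03% lower and 9.29% higher. In liver versus spleen, Gzmb and Nkg7 were higher and Prf1 lower, beside 5.97% higher and 6.77% lower (12.7% together). The median log2 fold change of the 10 was -0.40, -0.24 and -0.03 in the 3 comparisons, beside 0.29, 0.33 and -0.02 for all genes tested. With TMM scaling the median of all genes was 0.04 in both comparisons with thymus. That scaling also moved the split of all genes called from 27 higher and 16 lower to 19 higher and 25 lower in liver versus thymus, and from 25 higher and 28 lower to 26 higher and 63 lower in spleen versus thymus. Relative to the median of all genes, Gzmb was -1.28 in liver and -4.82 in spleen.

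The ratio of the granule protease to its partners is given per exonic length within each library, so that the scaling of a library cancels. The Gzmb to Serpinb9 ratio was 13.3, 33.5 and 16.8 in thymus, 5.97, 9.98 and 14.4 in liver, and 0.458, 0.709 and 1.55 in spleen. All spleen libraries lay below all others. The Gzmb to Srgn ratio was 5.81, 1.80 and 4.81 in thymus, 3.24, 0.997 and 1.30 in liver, and 0.0706, 0.0944 and 0.237 in spleen. The Gzmb to Prf1 ratio was 83.8, 14.3 and 26.1 in thymus, 25.5, 19.98 and 37.2 in liver, and 1.11, 1.01 and 2.43 in spleen. Each of these ratios separated spleen from the other tissues without overlap. Gzmb, the numerator of all of them, did so alone, so they are not independent of the Gzmb result. The Gzmb to Gzma ratio, given above, overlapped between tissues.

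**Figure D3:**
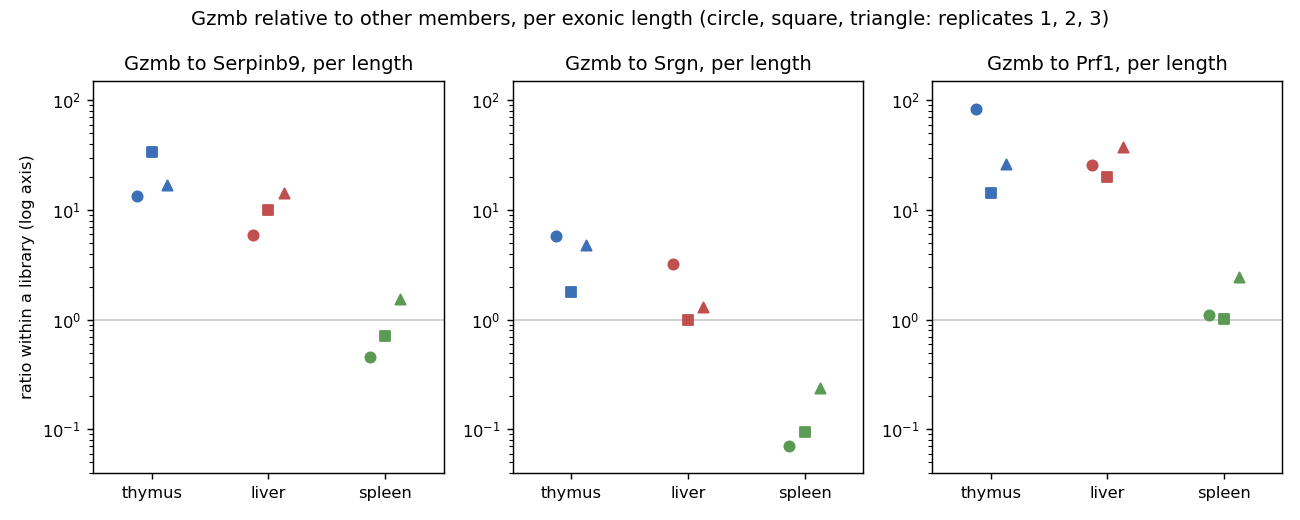
Ratio of Gzmb to Serpinb9, Srgn and Prf1 per exonic length (log axis) in each library, with circle, square and triangle for replicates 1, 2 and 3. Spleen libraries reach at most 1.55, 0.237 and 2.43, and no thymus or liver library is as low.

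Of 35 other genes of the cytotoxic pathway, 29 were in the table and 28 were tested. In liver versus thymus 1 was called, beside 0.323% of all genes, and it was lower in liver: Klrk1, which encodes the activating receptor NKG2D. In the other comparisons limma-trend called 0, beside 0.398% of all genes in spleen versus thymus and 0.015% in liver versus spleen. At an unadjusted p under 0.05, 4 of the 28 were higher and 2 lower in each comparison with thymus, where 7.72% of all genes were higher and 3.92% lower in liver and 7.56% and 4.13% in spleen. In liver versus spleen 0 of the 28 had an unadjusted p under 0.05, beside 1.72% of all genes higher and 1.31% lower. DESeq2 called 3 in each comparison with thymus (Klrk1, Ctsc and Ctsl), where it called 3.85% and 4.25% of genes, and 0 in liver versus spleen. Ctsl, a lysosomal protease, is named after its values were seen and has no fold here because it was at or near no read in thymus. edgeR called 0 in all 3 comparisons, beside 0.165%, 0.278% and 0.015% of all genes. The list medians were 0.22, 0.13 and -0.02 on the log2 scale. Klrk1 values were 14029, 15445 and 11780 in thymus, 5394, 4640 and 2932 in liver, and 5771, 6279 and 3475 in spleen. All thymus libraries lay above the other 6. The log2 fold change was -1.71 (SE 0.31, limma-trend adjusted p = 0.0267) in liver and -1.45 (limma-trend adjusted p = 0.0625) in spleen. The call in liver did not hold in 10 of 23 alternatives. It held without thymus replicate 3 or spleen replicate 3 and was lost without any of the other 7 libraries, with a limma-trend adjusted p of 0.183 without liver replicate 3. Ctsc, the protease that activates granzymes by removing their propeptide, was named after its values were seen. Its values were 4559, 3664 and 2263 in thymus, 1131, 1020 and 885 in liver, and 1467, 1036 and 680 in spleen, without overlap between thymus and the others, and it did not pass (limma-trend adjusted p = 0.177 in liver and 0.164 in spleen). By DESeq2 the adjusted p was 0.00296 and 0.00379, and it passed.

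Of 14 transcription factor genes linked to effector fate, 0 were called in any comparison by limma-trend or by edgeR. Over all genes, limma-trend called at most 0.398% in a comparison and edgeR at most 0.278%. DESeq2 called 1, Bhlhe40 in liver versus thymus, beside 3.85% of genes. At an unadjusted p under 0.05 by limma-trend, 2 were higher and 1 lower in liver versus thymus, beside 7.72% and 3.92% of all genes. The same threshold gave 2 higher and 2 lower in spleen versus thymus, beside 7.56% and 4.13% of all genes. It gave 1 higher in liver versus spleen, beside 1.72% of all genes higher and 1.31% lower. Bhlhe40, a repressor that supports effector cytokine output, was 1951 ± 848 in thymus, 5088 ± 858 in liver and 3644 ± 756 in spleen (SD, n = 3). All its liver and spleen values lay above its thymus values. Bach2, a repressor of effector genes, was 806 ± 810 in thymus, 1144 ± 372 in liver and 2321 ± 206 in spleen. Zfp683, which encodes Hobit, was 9909 ± 2527 in thymus, 12117 ± 1264 in liver and 6236 ± 1617 in spleen. Prdm1, which encodes Blimp-1, was 1054 ± 556 in thymus, 2591 ± 1075 in liver and 1354 ± 329 in spleen. None of these 4 genes passed in the fit to all 9 libraries. In the alternatives, Bach2 passed in spleen versus thymus without thymus replicate 3 (limma-trend adjusted p = 0.0287). Bhlhe40 passed in liver versus thymus without thymus replicate 2 (limma-trend adjusted p = 0.0482) and by DESeq2 (adjusted p = 0.0212). Zfp683 passed in liver versus spleen with array weights (limma-trend adjusted p = 0.0298). Over all genes, these 3 limma-trend fits called 140, 40 and 18 in those comparisons. The fit to all 9 libraries without weights called 53, 43 and 2.

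**Figure D4:**
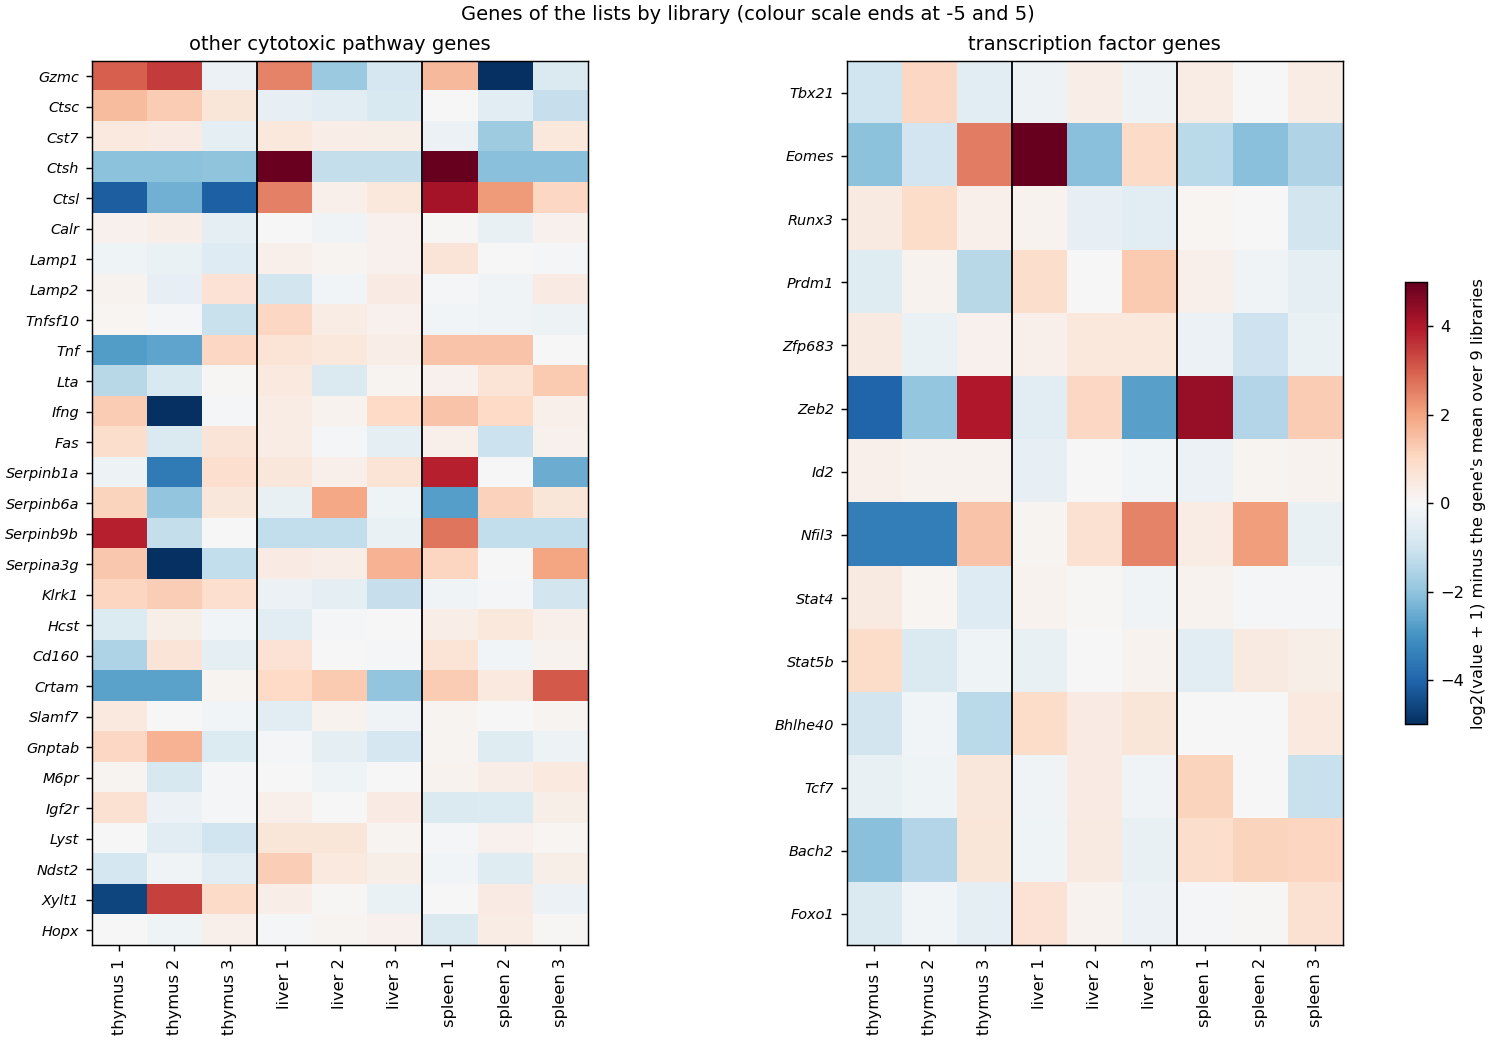
Log2(value + 1) minus the gene's mean over the 9 libraries for other cytotoxic pathway genes and transcription factor genes. Klrk1 and Ctsc are higher in the 3 thymus libraries than in the other 6. Lyst is higher in the liver libraries than in the thymus libraries.

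By root mean square difference of centred log2 profiles over the 9 libraries, the 5 genes most like Gzmb among 9595 were Plp2 (0.65), Fgl2 (0.84), Anxa5 (0.85), Ybx3 (0.89) and Klri2 (0.93), beside a median of 2.25 over all of them. Fgl2 was 27805 ± 5458 in thymus, 19046 ± 1724 in liver and 4502 ± 1507 in spleen (SD, n = 3).

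Some markers of NK cells had the tissue order of Gzmb and others did not. The 5 NK genes, all in the table, summed to between 3704 and 6246 in thymus, 1528 and 3275 in liver and 584 and 767 in spleen. Klre1 and Klri2 made up most of that sum, and Klri2 is also among the 5 genes nearest Gzmb in profile. Klre1 was lower in spleen than in thymus (log2 fold change -2.53, limma-trend adjusted p = 0.0181), and the other 4 did not pass in any comparison. Klra8 means were 233 ± 136 in thymus, 35.4 ± 30.7 in liver and 5.20 ± 4.56 in spleen (SD, n = 3). Klra8, Klre1 and Klri2 thus had the order of means of Gzmb. Ncr1 and Eomes were not highest in thymus. Ncr1 had no read in any thymus library, with means of 254 ± 319 in liver and 12.6 ± 20.2 in spleen (SD, n = 3). Eomes had 0, 1 and 19 reads in thymus, and its means were 8.36 ± 13.4 in thymus, 134 ± 226 in liver and 0.407 ± 0.363 in spleen (SD, n = 3). Liver replicate 1, whose Gzma lay within the thymus range, had the highest Ncr1 (616) and Eomes (395) of all libraries. Klre1 (1494), Klra8 (42.6) and Klri2 (728) were not highest in that library, and each had its highest value in thymus. Cd8a was also highest in liver replicate 1 (1116). The other CD8 T cell marker, Cd8b1, was low in every library, with its highest value, 40.9, in liver replicate 1. The part of NK cells, or of CD8 T cells, in the granzyme values was not tested. B cell genes summed to between 3157 and 5351 in thymus and reached 11124 in spleen replicate 1. Hepatocyte genes summed to between 1330 and 1633 in liver and macrophage genes reached 3438 in spleen replicate 1, and the 1 mast cell marker in the table, Cpa3, reached at most 75.8.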

How the data were processed

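Bulk RNA-seq libraries (76 sequencing cycles per the labels' protocols) were made from iNKT1 cells of thymus, liver and spleen, with 3 libraries per tissue. The authors trimmed with Trimmomatic 0.33, aligned with TopHat2 2.1.0 to mm10, counted with HTSeq 0.6.1 and used edgeR, per the submitters' processing notes; the annotation and scaling are not given in the sources used here. The deposited values are a normalised gene signal and are not raw counts; 13359 of 14004 identifiers matched a symbol. The values being normalised, limma-trend (limma 3.58.1, R 4.3.3) was fitted to log2(value + 1) for the 13309 genes that reached a value of 1 in 3 or more libraries. All 9 libraries entered 1 model with tissue as the factor, and p-values were Benjamini-Hochberg adjusted over all genes tested. Whole reads were estimated from the step between low values, and 93.4% of 15737 low values lay within 0.1 read of a whole number (72.7% in liver replicate 3). edgeR 4.0.16 and DESeq2 1.42.0 were run on these reads as alternatives. Named genes were all 10 members, the listed genes past the threshold or otherwise the 4 with the smallest p, and the 5 nearest Gzmb in profile. The members and lists were chosen with earlier results of these data known. Levels between genes were compared per exonic kilobase (GENCODE vM21, GRCm38). Motifs were searched in the 250 bases before each start, without the transcribed bases that the planned window also held.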

Additional observations from a re-analysis of the deposited data

How the results depend on the processing

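Alternatives changed scaling, filter, test, libraries and the replicate block, and 1 (liver replicate 1 and spleen replicate 1 left out) was chosen after seeing the data. In liver versus thymus, 1 member was called by DESeq2 and 0 otherwise (0 to 0 leaving out 1 library). In spleen versus thymus, 1 was called without the filter, with equal totals without mitochondrial genes and by edgeR, and 3 with TMM scaling and by DESeq2 (1 to 3 leaving out 1 library). In liver versus spleen, 2 (Gzmb and Nkg7) were called with array weights and 0 without the 2 libraries named above (0 to 1 leaving out 1). For the pathway list in liver versus thymus, 2 (Klrk1 and Lyst) were called with equal totals or array weights and 3 by DESeq2. By edgeR, with the 6 libraries alone or without the 2 libraries, 0 were called (0 to 1 leaving out 1). In spleen versus thymus, 1 was called with median-of-ratios, TMM or the replicate block and 3 by DESeq2 (0 to 0). In liver versus spleen it was 0 to 0. With the replicate block, members called were 0, 2 and 1. Over all genes, 43, 53 and 2 were called in the 3 comparisons, 455, 512 and 22 by DESeq2 and 22, 37 and 2 by edgeR, and 2, 13 and 0 without the 2 libraries. With array weights 50, 52 and 18 were called, with TMM scaling 44, 89 and 2, and without thymus replicate 3 151, 140 and 3. Correlations between libraries of different tissues were taken on deviations of log2(value + 1) from each gene's tissue mean, not on the values themselves. For same-numbered libraries they were -0.0007 to 0.0891, most of them positive. For differently numbered libraries they were -0.0866 to 0.0484, most of them negative. Deviations within a tissue cancel for each gene, so positive and negative correlations are tied to each other. All were small, and whether libraries are paired by number was not settled by them. The libraries numbered 2 share high Xist.
The sign of uncalled log2 fold changes turned as follows, and the cause was not tested. Prf1, spleen versus thymus, was 0.16 with equal totals, 0.0048 with array weights and 0.0916 without the 2 libraries. Fasl, liver versus spleen, was -0.0061 by edgeR. Srgn was -0.0751 with TMM (liver versus thymus), and 0.0359 with array weights and 0.32 without the 2 libraries (liver versus spleen). Serpinb9, liver versus thymus, was -0.12 with median-of-ratios, -0.23 with TMM, -0.22 with array weights and -0.29 without the 2 libraries; spleen versus thymus, it was -0.0764 with median-of-ratios, -0.19 with TMM and -0.0113 without the 2 libraries; liver versus spleen, 0.0209 by DESeq2. Serpinb6b was 0.037 with array weights and 0.25 without the 2 libraries (liver versus thymus), and -0.0135 and 0.26 without them in spleen versus thymus and liver versus spleen. Leaving out 1 library, ranges that crossed 0 were -0.15 to 0.12 for Fasl and -0.63 to 0.22 for Srgn in liver versus spleen, -0.14 to 0.82 for Srgn and -0.0286 to 0.61 for Nkg7 in liver versus thymus, -0.73 to 0.66 for Prf1 in spleen versus thymus, -0.73 to 0.25 and -0.0135 to 0.98 for Serpinb6b in liver and spleen versus thymus, and -0.29 to 0.31, -0.17 to 0.38 and -0.41 to 0.17 for Serpinb9 in liver versus thymus, spleen versus thymus and liver versus spleen.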
